A study of Mus musculus with 27 samples.

Results

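The step from neural stem cells (NSC) to early neuroblasts (ENB) of the adult mouse subventricular zone was followed in the total mRNA of sorted cells. The 6 libraries compared, 3 of ENB and 3 of NSC, are all those that the labels assign to these 2 stages in total mRNA, of 27 libraries in the whole series. The series also holds late neuroblasts (LNB) and neurons of the olfactory bulb, and ribosome-bound mRNA of all 4 stages. The comparison asks which mRNAs differ in level between the stem cell and its first migrating progeny, before any measure of translation is considered. ENB cells came from DiCRY mice (Dcx-CreER-Rpl22.HA-eYFP) and NSC cells from TiCRY mice (Tlx-CreER-Rpl22.HA-eYFP), by the library names in the labels. In both lines a tamoxifen-inducible Cre recombinase switches on the fluorescent protein eYFP together with an HA-tagged copy of the ribosomal protein Rpl22. The Cre is driven by Dcx in the first line and by Tlx, the gene now called Nr2e1, in the second. All mice were males aged 8 to 12 weeks on a C57BL/6 background, and all received tamoxifen by gavage at 200 mg/kg in 2 to 3 doses. The interval between tamoxifen and dissection is not given for these libraries in the sources used here. For each library the zone of 1 to 2 mice was digested with trypsin, and 200 to 500 living cells with eYFP were collected by sorting. Stage and driver line go together without exception, so a difference between stages and a difference between the lines cannot be told apart. The same holds for fewer cells of a type and less of an mRNA per cell, since each library is a pool of cells.

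Adult neural stem cells of this zone are astrocyte-like cells that line the lateral ventricle, and many of them rest outside the cell cycle. When activated they give rise to dividing precursors and then to neuroblasts, which migrate in chains towards the olfactory bulb and there become mostly GABAergic interneurons. The stem cell state is known to depend on Notch, BMP, Wnt and EGF signals from the niche, and the neuroblast state on a programme of Dlx, Sp and Sox factors and on a cytoskeleton built for migration.

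Of 45195 genes in the table of raw counts, 17592 passed the low-count filter and were tested. The ENB libraries hold 13019665, 7924825 and 15994635 counts and the NSC libraries 15005452, 13931195 and 8189474 counts. Spearman correlations over the tested genes ran from 0.936 to 0.965 within ENB, from 0.952 to 0.958 within NSC and from 0.854 to 0.871 between the stages. Genes that overlap ribosomal RNA took 14.6, 2.67 and 7.99% of the counts in ENB libraries 1, 2 and 3, and 0.677, 12.3 and 1.13% in NSC libraries 1, 2 and 3. The 3 libraries with high shares are the 3 that carry one of the second indexes of the barcode, and each index was used in both stages. Levels below are CPM, counts scaled to a common library size with TMM factors, and changes are log2 fold changes of ENB over NSC ± SE. A gene is called when the adjusted p of edgeR's quasi-likelihood test is under 0.05. The SE was derived from that test, as the size of the change divided by the square root of its F statistic.

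The labels were checked first against the stage markers. Dcx, which encodes the microtubule-binding protein doublecortin of migrating neurons, had 1061, 1574 and 1129 CPM in the 3 ENB libraries, against 194, 145 and 143 CPM in the 3 NSC libraries. Its change was 2.97 ± 0.28 (adjusted p = 0.00055). Tubb3, a neuronal beta-tubulin, had 2264, 2103 and 1968 CPM in ENB, against 403, 419 and 419 CPM in NSC, a change of 2.35 ± 0.25 (adjusted p = 0.00062). Both markers are higher in every ENB library than in any NSC library, and both are well above 0 in NSC. Nr2e1, an orphan nuclear receptor that maintains neural stem cells, had 14.6, 14.0 and 30.1 CPM in ENB, against 222, 276 and 334 CPM in NSC. It fell by 3.82 ± 0.78 (adjusted p = 0.012), a call that was lost without ENB library 1 or ENB library 2, with an adjusted p of up to 0.054. Slc1a3, the glial glutamate transporter GLAST, had 102, 235 and 154 CPM in ENB, against 1852, 2434 and 2137 CPM in NSC, and fell by 3.71 ± 0.71 (adjusted p = 0.0089). All 4 markers follow the labels. The promoters of Dcx and Nr2e1 control the Cre of the 2 lines, so these genes took part in choosing the cells. Esr1, whose ligand-binding part is contained in CreER, had 94.3, 131 and 102 CPM in ENB and 12.1, 12.0 and 10.5 CPM in NSC, and how many of these counts come from the transgene was not tested.

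The promoters of these markers, and of Adarb2, a gene of the RNA editing family that is among the largest rises, are shown because these genes mark both sides of the step. Each sequence is the 250 bases before a start listed for the gene in RefSeq, GRCm38.p6, written 5′ to 3′ on the gene's own strand. Where a gene has several such windows, the first listed was used, here and in the shares below. The window of Adarb2 lies inside the gene, whose first base in RefSeq is 8202526. Capitals mark matches, on either strand, to the homeodomain core TAATTA, the nuclear factor I core TTGGC or the SOX core ACAATG.
Dcx, chrX:143933220-143933469, minus strand: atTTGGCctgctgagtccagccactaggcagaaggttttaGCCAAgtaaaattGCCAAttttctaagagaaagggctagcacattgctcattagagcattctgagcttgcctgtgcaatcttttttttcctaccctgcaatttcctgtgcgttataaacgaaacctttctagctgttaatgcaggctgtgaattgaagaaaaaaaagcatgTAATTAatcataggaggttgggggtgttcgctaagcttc
Adarb2, chr13:8202616-8202865, plus strand: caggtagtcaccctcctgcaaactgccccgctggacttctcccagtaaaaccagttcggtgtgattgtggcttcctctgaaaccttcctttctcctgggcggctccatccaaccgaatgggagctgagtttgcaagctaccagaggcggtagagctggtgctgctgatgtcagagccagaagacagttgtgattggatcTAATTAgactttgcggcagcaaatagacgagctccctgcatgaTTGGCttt
Tubb3, chr8:123411303-123411552, plus strand: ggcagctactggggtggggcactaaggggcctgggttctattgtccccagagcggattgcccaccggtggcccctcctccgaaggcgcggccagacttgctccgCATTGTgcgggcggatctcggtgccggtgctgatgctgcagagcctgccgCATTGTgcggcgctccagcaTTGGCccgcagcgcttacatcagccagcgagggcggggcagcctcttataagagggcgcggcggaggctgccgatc
Nr2e1, chr10:42583591-42583840, minus strand: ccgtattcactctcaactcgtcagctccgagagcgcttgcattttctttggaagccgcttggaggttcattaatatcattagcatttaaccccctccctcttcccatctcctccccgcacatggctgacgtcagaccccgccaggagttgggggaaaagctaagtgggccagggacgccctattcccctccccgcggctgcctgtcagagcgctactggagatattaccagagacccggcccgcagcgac
Slc1a3, chr15:8710808-8711057, minus strand: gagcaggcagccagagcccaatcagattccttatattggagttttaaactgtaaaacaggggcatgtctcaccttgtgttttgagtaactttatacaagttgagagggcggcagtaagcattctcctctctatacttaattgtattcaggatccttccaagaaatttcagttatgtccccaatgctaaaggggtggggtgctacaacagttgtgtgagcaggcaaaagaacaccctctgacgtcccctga
Of the tested genes, 11701 have such a promoter in the table, among them 622 that rose and 688 that fell. TAATTA stands in 1.61% of the promoters of genes that rose, in 2.33% of those that fell and in 2.26% of all. TTGGC stands in 42.9% of the promoters of genes that rose, in 48.3% of those that fell and in 45.5% of all, and ACAATG in 6.91, 6.10 and 6.23%. The E-box CAGCTG was found in 15.4% of the promoters of genes that rose, in 12.8% of those that fell and in 12.0% of all. The motif CATGGNAAC of RFX factors was found in 0.643% of the promoters of genes that rose, in 1.89% of those that fell and in 1.25% of all. None of these shares was tested. A match is a run of letters in this window and no more than that.

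Between ENB and NSC 1772 genes were called, 10.1% of those tested. Of these, 871 rose in ENB (4.95% of genes tested) and 901 fell (5.12%), while 4719 genes had an unadjusted p under 0.05. The falls were larger than the rises. Among genes that fell the median size of the log2 change was 2.70, and 403 of them fell more than 8-fold. Among genes that rose the median was 1.59, and 83 rose more than 8-fold. In all 3 ENB libraries 92 of the fallen genes had 0 counts, and in all 3 NSC libraries 11 of the risen genes had 0 counts. The ENB and NSC libraries did not overlap in 869 of the risen and 888 of the fallen genes, and in 43.3% of all genes tested. Together the risen genes took 19.0% of the scaled counts in ENB (17.7 to 20.5%) and 7.51% in NSC (6.74 to 8.20%), and the fallen genes took 2.55% in ENB (2.19 to 2.94%) and 13.3% in NSC (12.7 to 14.2%). The number of calls depends on every library. It was 775, 882 and 721 without ENB library 1, 2 or 3, and 892, 808 and 770 without NSC library 1, 2 or 3. The fit to the 6 libraries alone called 4110 genes, and DESeq2 called 3522. With TPM and limma in place of counts and edgeR, 597 genes were called higher and 1331 lower in ENB.

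**Figure D1:**
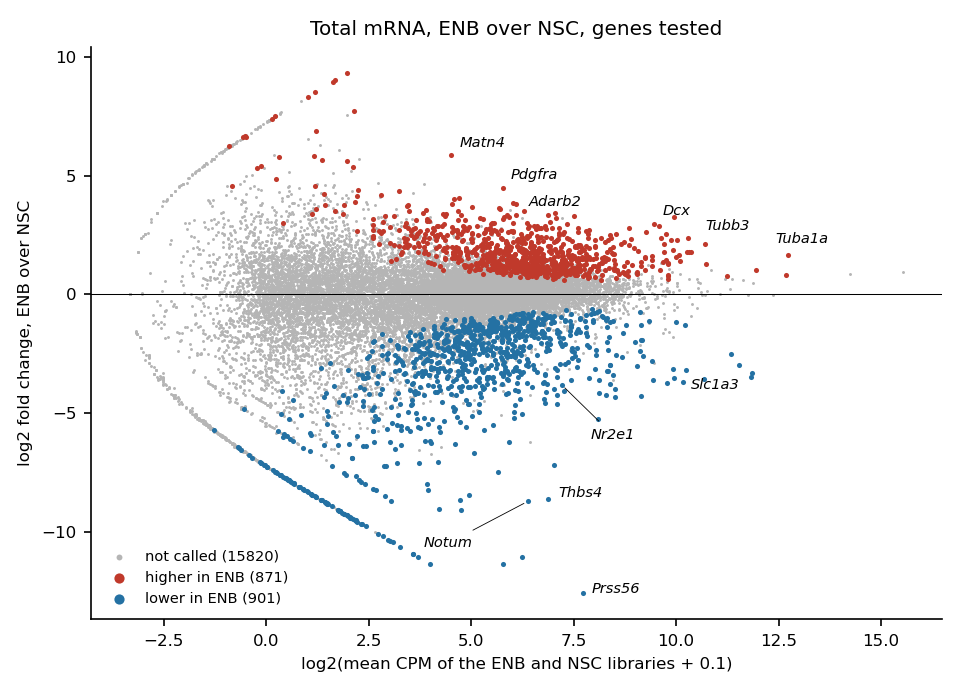
Level and change of the 17592 genes tested in total mRNA. The x axis is the log2 of the mean CPM over ENB and NSC libraries plus 0.1, the y axis is the fitted log2 fold change of ENB over NSC, and colour marks the 871 genes called higher and the 901 called lower in ENB. The edges that slope outwards are genes with 0 counts in one stage, whose fitted change has no upper bound in the data.

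The 12 largest rises among abundant genes (called, without overlap between the stages, and at least 20 CPM in the higher stage) had changes from 3.56 to 5.87, and 3 of them, Matn4, Pdgfra and Lhfpl3, are markers of oligodendrocyte precursors. Matn4, a matrix protein of the matrilin family, had 41.4, 42.3 and 51.1 CPM in ENB, against 0.484, 0.381 and 1.57 CPM in NSC, and rose by 5.87 ± 1.13 (adjusted p = 0.0093). Adarb2 had 104, 124 and 157 CPM in ENB, against 11.6, 7.39 and 8.07 CPM in NSC (3.82 ± 0.27, adjusted p = 0.00015). The change of Adarb2 had a small error for its size. Cacna1c, the pore of the L-type calcium channel, had 116, 134 and 117 CPM in ENB, against 10.2, 8.08 and 7.40 CPM in NSC (3.83 ± 0.30, adjusted p = 0.00019). Cacna1h, a T-type channel pore, had 22.2, 22.3 and 37.6 CPM in ENB, against 3.39, 1.37 and 2.13 CPM in NSC (3.56 ± 0.53, adjusted p = 0.0028). Prokr2, the receptor for the prokineticins, which attract neuroblasts to the bulb, had 86.4, 82.4 and 118 CPM in ENB, against 14.4, 3.51 and 4.82 CPM in NSC. The serotonin-gated channel Htr3a, a marker of a class of forebrain interneurons, had 48.8, 42.4 and 55.9 CPM in ENB, against 3.57, 3.81 and 1.35 CPM in NSC. Pik3cd, Fam78b, Sema6c, Sema7a, Pdgfra and Lhfpl3 complete the 12, with changes from 3.61 to 4.49. In each of them every ENB library is above every NSC library, as the choice required. The calls of Htr3a and Prokr2 were lost without any one of the 6 libraries, with an adjusted p of up to 0.15. Those of Sema6c and Sema7a were lost without any of 5 libraries (all but ENB 3 and all but ENB 2), that of Pdgfra without ENB 3, NSC 1 or NSC 2, and that of Pik3cd without NSC 1 or NSC 2.

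The 12 largest falls were close to absence in ENB. Prss56, a serine protease, had 0.173, 0 and 0 CPM in ENB, which is 2 counts in all, against 241, 525 and 519 CPM in NSC. The ratio of NSC to ENB was 7016, with an exact 95% interval from 1942 to 57937 that covers counting error alone. Notum, a secreted enzyme that inactivates Wnt proteins, had 1.12, 0 and 0 CPM in ENB, against 174, 147 and 177 CPM in NSC. Thbs4, a thrombospondin that is secreted by astrocytes of this zone, had 1.73, 0 and 0 CPM in ENB, against 194, 235 and 280 CPM in NSC. For both genes the few ENB counts lie in library 1. Gli1, the transcription factor that reports Hedgehog signalling, was at 0 in every ENB library, against 28.0, 23.4 and 19.5 CPM in NSC. Set against 3 counts over the 3 ENB libraries, Gli1 was at least 285-fold lower in ENB. By the same measure the sugar transporter gene Slc2a10 was at least 312-fold lower and Veph1 at least 269-fold lower. Itih3, which encodes a hyaluronan-binding serum protein, had 1 count in ENB and a ratio of NSC to ENB of 3797 (681 to 149990). Pygl, the liver form of glycogen phosphorylase, had 0.173, 0 and 0.261 CPM in ENB, against 30.0, 86.4 and 66.6 CPM in NSC. Ecel1, Myadml2os, Togaram2 and Adamts18 complete the 12, with 2, 3, 2 and 4 counts over the ENB libraries. The call of Ecel1 was lost without any one ENB library, and that of Slc2a10 without ENB library 1 or 3.

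**Figure D2:**
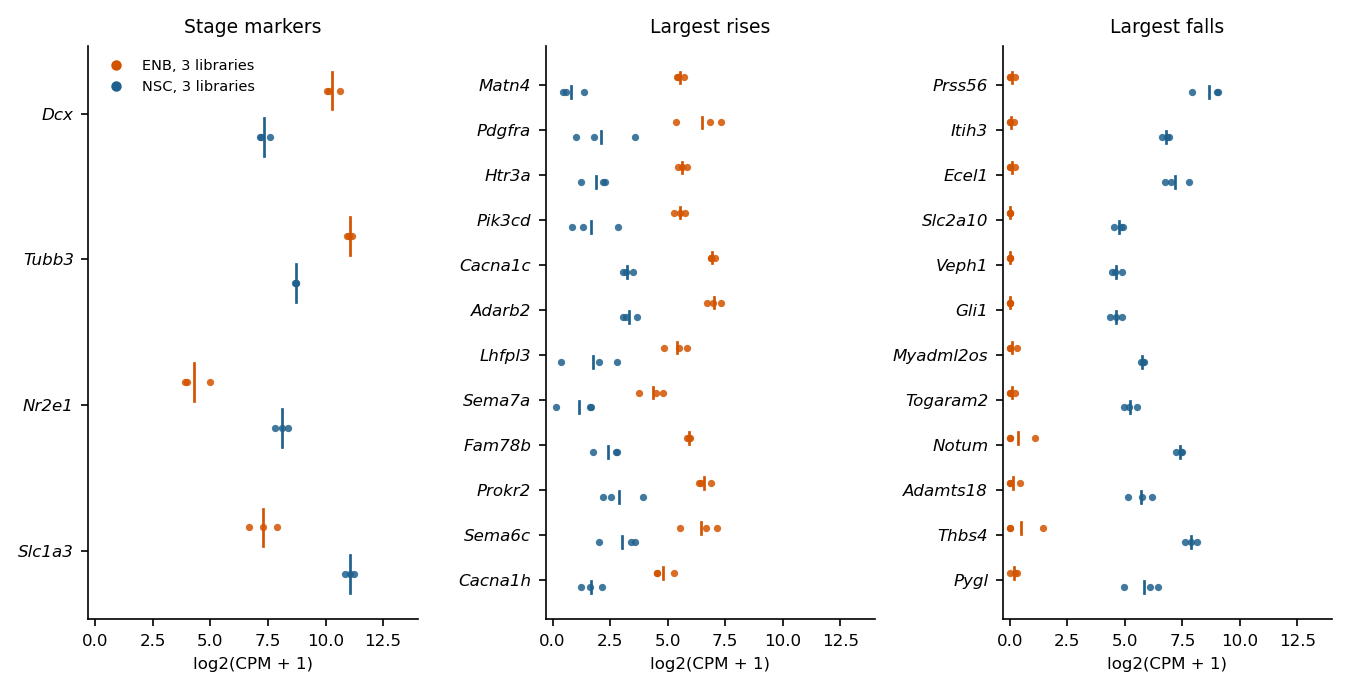
Values of every library for the 4 stage markers, the 12 largest rises and the 12 largest falls, as log2(CPM + 1). Orange points are the 3 ENB libraries and blue points, one step below, the 3 NSC libraries; short lines are group means. In all 28 rows the ENB and NSC points do not overlap, which was a condition for choosing the 12 rises and the 12 falls.

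Genes of the astrocyte-like stem cell were lower in ENB as a group. The gene lists here and below were chosen with earlier results of these data known, so their shares of calls are descriptive. Of 24 tested genes of radial glia and stem cell structure, 13 fell and 0 rose, with a median change of -3.24, against -0.01 over all genes tested and 5.12% of genes called lower. Apoe, which carries lipids between cells, had 256, 1131 and 643 CPM in ENB, against 6092, 7830 and 6414 CPM in NSC (-3.32 ± 0.78, adjusted p = 0.021). S100a6, a calcium-binding protein, had 4.23, 6.39 and 2.87 CPM in ENB, against 131, 158 and 150 CPM in NSC (-5.03 ± 0.86, adjusted p = 0.0057). Gfap, the intermediate filament of astrocytes, had 3.62, 0.125 and 13.4 CPM in ENB, against 67.9, 111 and 152 CPM in NSC (-4.22 ± 1.01, adjusted p = 0.022). The metallothionein genes Mt1, Mt2 and Mt3 fell as well, with changes from -3.63 to -3.23. The filament genes Vim and Nes, shared by stem cells and their dividing progeny, were not called, with changes of -0.07 and -0.72. Of 20 genes of astrocyte transport and coupling 6 fell and 0 rose, with a median of -2.39. The gap junction gene Gja1 had 7.16, 132 and 29.3 CPM in ENB, against 1017, 1143 and 1081 CPM in NSC. Mlc1, a membrane protein of astrocyte end feet, had 16.4, 61.1 and 25.4 CPM in ENB, against 558, 797 and 743 CPM in NSC (-4.35 ± 0.93, adjusted p = 0.014). Within ENB, library 2 was the highest for Apoe, Gja1 and Mlc1, and the summed level of the 20 transport genes was 837, 2172 and 1264 CPM in ENB libraries 1, 2 and 3, against 8819, 11149 and 9813 CPM in NSC. The count of fallen genes of radial glia was 3, 12 and 4 without ENB library 1, 2 or 3, and 11, 8 and 6 without NSC library 1, 2 or 3. For transport genes it was 1, 4 and 1, and 3, 2 and 3, and the call of Mlc1 was lost without ENB library 1 or 3.

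Transcription factors of the stem cell fell in greater number than they rose. Of 35 tested, 14 fell (40.0%, against 5.12% of all genes) and 3 rose (8.57%, against 4.95%), with a median change of -2.27. The Id genes, which encode inhibitors of basic helix-loop-helix factors, included 3 that fell, Id1, Id2 and Id3, while Id4 had a change of -0.71 (adjusted p = 0.18). Id3 had 7.50, 17.4 and 21.2 CPM in ENB, against 206, 279 and 246 CPM in NSC (-3.98 ± 0.82, adjusted p = 0.012). The Notch targets Hes1 and Hes5 fell by 3.66 ± 0.89 and 1.92 ± 0.55 (adjusted p = 0.024 and 0.046). Tcf7l2, a factor through which Wnt signals act, had 11.0, 9.52 and 8.61 CPM in ENB, against 125, 130 and 133 CPM in NSC (-3.73 ± 0.44, adjusted p = 0.00096). Gli3, a Hedgehog-regulated factor, had 5.26, 10.4 and 6.78 CPM in ENB, against 73.6, 72.9 and 59.4 CPM in NSC. Sox9 fell by 2.00 ± 0.55 (adjusted p = 0.041), whereas Sox2 had a change of -0.60 (adjusted p = 0.18). The nuclear factor I family divided. Nfib had 1568, 1558 and 1790 CPM in ENB, against 578, 536 and 442 CPM in NSC (1.66 ± 0.31, adjusted p = 0.0077). Nfix rose by 1.37 ± 0.28 and Nfic fell by 1.76 ± 0.40, while Nfia had a change of -0.31 (adjusted p = 0.51). Zeb1 was the third factor of the list that rose, by 0.70 ± 0.19 (adjusted p = 0.041). The 14 falls became 5, 6 and 9 without ENB library 1, 2 or 3, and 9 without any one NSC library.

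In the Notch pathway 4 of 22 genes fell (18.2%, against 5.12% of all genes) and 1 rose (4.55%, against 4.95%), with a median of -0.11. The receptor Notch2 had 12.7, 17.7 and 17.0 CPM in ENB, against 191, 212 and 206 CPM in NSC (-3.68 ± 0.72, adjusted p = 0.0095), and the ligand Jag1 had 7.68, 5.26 and 13.2 CPM in ENB, against 91.4, 71.4 and 64.3 CPM in NSC. The receptor Notch1 had a change of -0.84 (adjusted p = 0.13), and the coactivator gene Maml3 rose by 2.31 ± 0.42 (adjusted p = 0.0077). In the BMP and TGF-beta pathway 4 of 24 genes fell (16.7%) and 0 rose, with a median of -0.41. They were the ligands Bmp6 and Tgfb2, the receptor Bmpr1b and the BMP antagonist Chrdl1, which was at 0 in every ENB library and at least 190-fold lower there. In the Wnt pathway 5 of 25 genes fell and 2 rose. Sfrp1, a secreted Wnt antagonist, had 17.6, 2.88 and 9.13 CPM in ENB, against 197, 201 and 232 CPM in NSC (-4.40 ± 0.53, adjusted p = 0.0011). Dkk3, a secreted protein of the Dickkopf family, had 37.4, 49.3 and 40.8 CPM in ENB, against 572, 789 and 682 CPM in NSC, and the receptor Fzd1, the ligand Wnt7b and Notum fell too. The ligand Wnt5a had 80.0, 72.1 and 90.3 CPM in ENB, against 12.5, 9.60 and 7.63 CPM in NSC (3.02 ± 0.37, adjusted p = 0.0011), and Wnt7a rose by 1.15 ± 0.32. Of 27 growth factor receptors and their modulators 7 fell (25.9%) and 3 rose (11.1%), with a median of -1.42. The EGF receptor gene Egfr, a marker of activated stem cells, had 29.1, 1.63 and 15.9 CPM in ENB, against 181, 310 and 158 CPM in NSC (-3.79 ± 0.86, adjusted p = 0.019). Ntrk2, the BDNF receptor gene, had 153, 170 and 187 CPM in ENB, against 1025, 1367 and 1188 CPM in NSC. Erbb4, the neuregulin receptor of migrating interneurons, had 171, 202 and 174 CPM in ENB, against 25.2, 19.9 and 33.3 CPM in NSC (2.81 ± 0.36, adjusted p = 0.0013). The 7 fallen receptor genes became 3, 5 and 1 without ENB library 1, 2 or 3, and 3, 1 and 2 without NSC library 1, 2 or 3. The 3 risen receptor genes became 1 or 2. The 5 fallen Wnt genes became 4 or 5, and the 2 risen Wnt genes became 1 without any one library. The 4 fallen Notch genes became 2 without any one library, and the 4 of BMP and TGF-beta 1 or 2, where Bmp6 lost its call without any one library and Bmpr1b without ENB 1, ENB 2 or NSC 1.

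Of 20 genes of stem cell activation and commitment 2 rose (against 4.95% of all genes) and 4 fell (against 5.12%). The median change of these 20 genes was -0.46. The rises became 0 without NSC library 2 and 1 without NSC library 3, and the falls became 2 or 3 without any one library. The 2 that rose, Dlx1 and Dlx2, homeodomain factors of precursors committed to the interneuron lineage, rose by 1.58 ± 0.31 and 1.46 ± 0.32 (adjusted p = 0.0095 and 0.016). The genes of DNA replication and mitosis were largely without a call. Of 30 tested, 1 fell (3.33%, against 5.12% of all genes) and 0 rose (against 4.95%), with a median change of -0.34. The share that fell is near that of all genes. The one that fell, the replication clamp gene Pcna, had 183, 205 and 207 CPM in ENB, against 317, 375 and 315 CPM in NSC (-0.76 ± 0.22, adjusted p = 0.046), a call lost without any one library. Mki67, a protein of dividing cells, had 360, 240 and 418 CPM in ENB, against 286, 438 and 251 CPM in NSC, and the groups overlap (0.06, adjusted p = 0.98). Top2a, the topoisomerase of dividing cells, had 538, 491 and 687 CPM in ENB, against 559, 701 and 619 CPM in NSC (-0.13, adjusted p = 0.96). In the same fit Mki67 averaged 34.1 ± 21.1 CPM in LNB and 5.04 ± 7.60 CPM in neurons (SD, n = 3 each). Of 23 cyclins and inhibitors, Cdk6, Ccne1 and Btg2 fell and Btg1 rose, and the list had 0 rises without any one library other than ENB 2. Cdk6, a kinase of the step into S phase, had 43.2, 59.3 and 56.1 CPM in ENB, against 404, 320 and 237 CPM in NSC (-2.60 ± 0.58, adjusted p = 0.018), and its call was lost without any one ENB library, while that of Ccne1 was lost without any one of the 6. The inhibitor Cdkn1b had a change of 1.58 (adjusted p = 0.081). In the fit to the 6 libraries alone, 11 genes of replication and mitosis were called lower and 1 higher. Over all genes that fit called 2255 lower and 1855 higher.

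**Figure D3:**
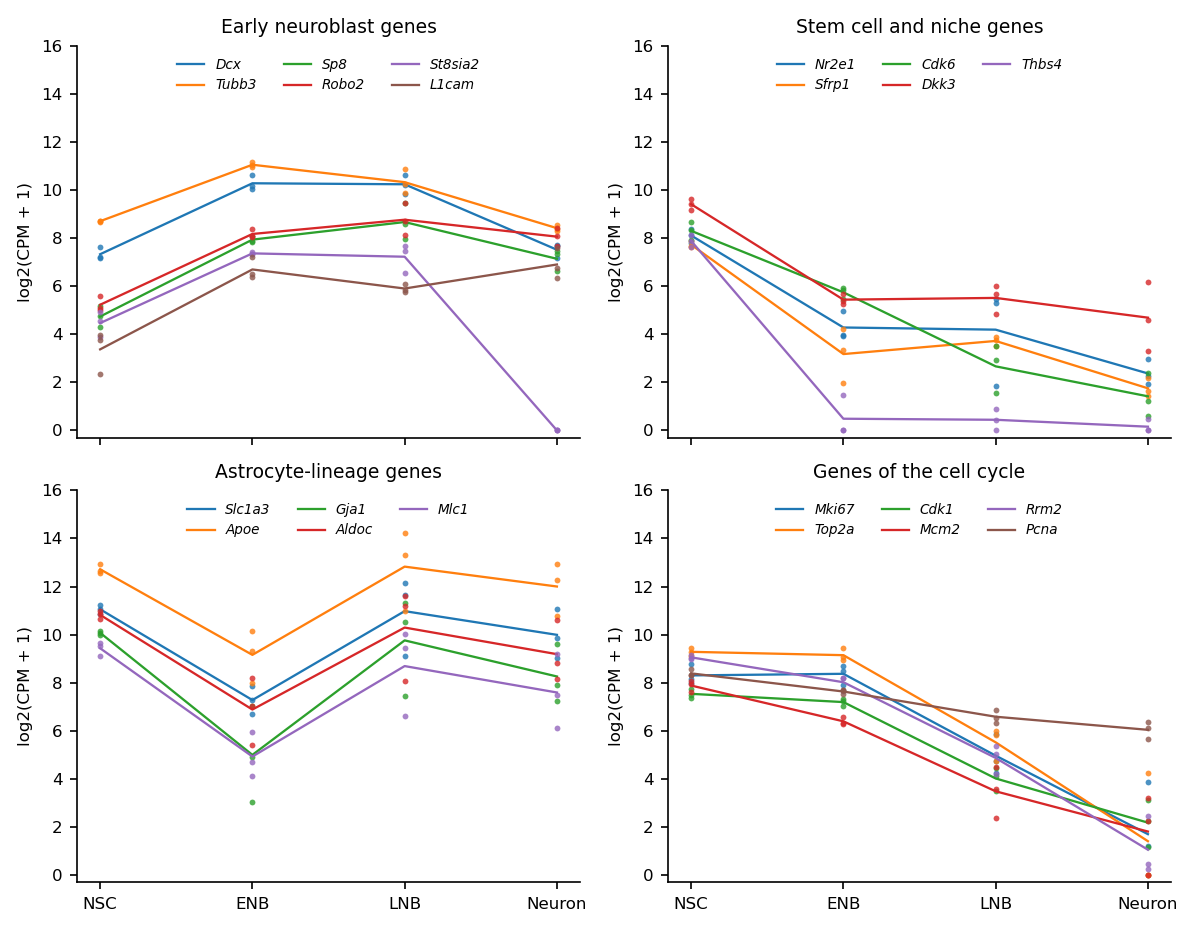
Levels of 22 genes over the 4 stages in total mRNA, in the order NSC, ENB, LNB and neuron, as log2(CPM + 1). Points are the 3 libraries of a stage and lines join the means. Astrocyte-lineage genes were lowest on average in ENB and higher again in both bulb stages, whereas the cell cycle genes shown had their lower levels in LNB and neurons.

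Transcription factors of bulb interneurons were higher in ENB in large part. Of 26 tested, 16 rose and 0 fell, with a median change of 1.57, against 4.95% of all genes called higher. Sp8, a zinc finger factor of calretinin and dopaminergic interneurons, had 268, 233 and 229 CPM in ENB, against 35.2, 18.5 and 25.6 CPM in NSC (3.20 ± 0.39, adjusted p = 0.0011). Pbx3, a homeodomain cofactor, had 141, 181 and 171 CPM in ENB, against 43.4, 25.9 and 30.3 CPM in NSC (2.31 ± 0.32, adjusted p = 0.0020). Its partner Meis2 had 797, 1031 and 883 CPM in ENB, against 335, 277 and 312 CPM in NSC (1.55 ± 0.23, adjusted p = 0.0028). Dlx5, Dlx6, Sp9, Etv1, Tshz1, Prox1, Foxp2, Bcl11a and Bcl11b rose too, with changes from 1.78 to 3.02. Pax6, a factor of dopaminergic fate, had a change of 0.79 (adjusted p = 0.24). Gsx2, which acts in precursors of the zone, had a change of -1.25 (adjusted p = 0.49). Of 22 general neuronal factors 8 rose (36.4%) and 1 fell (4.55%, against 5.12% of all genes). Sox4, which promotes neuronal genes in immature neurons, had 752, 936 and 711 CPM in ENB, against 163, 165 and 154 CPM in NSC (2.32 ± 0.35, adjusted p = 0.0028). Myt1l, a zinc finger factor that represses other cell fates, had 153, 168 and 192 CPM in ENB, against 29.2, 17.1 and 23.7 CPM in NSC. Its relatives Myt1 and St18 rose by 2.03 ± 0.46 and 2.42 ± 0.35. The factor that fell was Hivep2, by 2.50 ± 0.57 (adjusted p = 0.019). The 16 rises became 12, 11 and 14 without ENB library 1, 2 or 3, and 14, 9 and 11 without NSC library 1, 2 or 3, and the 8 rises became 3 to 5. Dlx1 and Bcl11b lost their calls without NSC library 2.

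The cytoskeleton held the most abundant mRNAs that rose. Of 31 genes of tubulins and microtubule proteins 19 rose (61.3%, against 4.95% of all genes) and 1 fell (3.23%, against 5.12%). Their median change was 1.15. Tuba1a, the main alpha-tubulin of immature neurons, averaged 14530 ± 958 TPM in ENB and 4997 ± 535 TPM in NSC (SD, n = 3 each; TPM is per length). On the CPM scale it had 11368, 9411 and 10046 CPM in ENB, against 3375, 3368 and 3128 CPM in NSC (1.64 ± 0.30, adjusted p = 0.0077). Tubb2b rose by 2.28 ± 0.22 (adjusted p = 0.00055), although reads of near-identical tubulin genes may have been divided between them. Stmn2, a stathmin of growth cones that binds free tubulin, had 1043, 1130 and 983 CPM in ENB, against 201, 151 and 161 CPM in NSC (2.62 ± 0.27, adjusted p = 0.00062). The collapsin response mediators Dpysl3, Dpysl4, Dpysl5 and Crmp1, which act downstream of semaphorins, rose by 2.11, 1.15, 2.54 and 1.81. Map1b rose by 2.10 ± 0.31, while Map1a, a related protein of mature neurons, fell by 1.25 ± 0.34 (adjusted p = 0.038). Of 26 genes of actin and the growth cone 12 rose (46.2%) and 1 fell (3.85%). Dbn1, the actin-binding protein drebrin, had 855, 911 and 910 CPM in ENB, against 331, 333 and 266 CPM in NSC (1.53 ± 0.26, adjusted p = 0.0054). Cdk5r1, the activator of the neuronal kinase Cdk5, had 209, 213 and 197 CPM in ENB, against 55.5, 33.8 and 31.0 CPM in NSC (2.36 ± 0.42, adjusted p = 0.0063). Actb and Actg1 rose by 0.82 ± 0.22 and 0.79 ± 0.16, and Pfn2 rose by 1.77 ± 0.32, whereas its sister gene Pfn1 fell by 0.63 ± 0.16 (adjusted p = 0.031). The 19 rises became 14 to 16 without any one library, and the 1 fall became 0 without any one library other than ENB 2. The 12 of actin and the growth cone became 6, 6 and 8 without ENB library 1, 2 or 3, and 5, 4 and 5 without NSC library 1, 2 or 3, and the 1 fall, Pfn1, was lost without any one of the 6.

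Guidance receptors moved in both directions. Of 41 genes of migration cues and receptors 6 rose (14.6%, against 4.95% of all genes) and 4 fell (9.76%, against 5.12%). Robo2, the receptor for Slit proteins that repel neuroblasts from the septum, had 263, 270 and 329 CPM in ENB, against 46.6, 30.8 and 33.3 CPM in NSC (2.96 ± 0.34, adjusted p = 0.00095). The semaphorin receptors Plxna2 and Plxna4 and the reelin receptors Vldlr and Lrp8 rose as well. Dab1, the adaptor through which both reelin receptors act, had 32.6, 40.6 and 27.1 CPM in ENB, against 114, 161 and 105 CPM in NSC (-1.92 ± 0.25, adjusted p = 0.0016). The other falls were Sema6a, Epha5 and Ephb1. Of 25 surface genes 9 rose and 3 fell. Ncam1, the carrier of polysialic acid, had 1955, 1826 and 2281 CPM in ENB, against 643, 500 and 642 CPM in NSC (1.76 ± 0.20, adjusted p = 0.00093). St8sia2, an enzyme that builds the polysialic acid chain, had 161, 168 and 160 CPM in ENB, against 22.6, 13.7 and 29.7 CPM in NSC (2.89 ± 0.36, adjusted p = 0.0023). L1cam, an adhesion molecule of axons, had 82.5, 89.1 and 145 CPM in ENB, against 12.6, 4.11 and 14.8 CPM in NSC. Cd24a, by which neuroblasts of this zone are sorted, rose by 2.28 ± 0.34 (adjusted p = 0.0028). The 9 rises became 8 or 9 without any one library, and the 3 falls, Cdh4, Gpm6b and Alcam, became 0, 1 and 1 without ENB library 1, 2 or 3. The 6 rises among migration genes became 4 without any one ENB library, and 4, 6 and 3 without NSC library 1, 2 or 3. The 4 falls among migration genes became 4, 3 and 1, and 4, 3 and 2.

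Genes of GABA synthesis and loading rose, whereas most called receptor subunits fell. Of 20 GABA and chloride genes 3 rose (15.0%, against 4.95% of all genes) and 6 fell (30.0%, against 5.12%). Gad2, which makes GABA, had 591, 531 and 494 CPM in ENB, against 114, 99.8 and 120 CPM in NSC (2.27 ± 0.33, adjusted p = 0.0026). Slc32a1, which loads it into vesicles, had 16.9, 32.7 and 16.8 CPM in ENB, against 2.54, 1.37 and 7.18 CPM in NSC (2.59 ± 0.67, adjusted p = 0.031). Gabra4, a receptor subunit, had at most 7.30 CPM in any ENB library, against at least 19.4 CPM in any NSC library (-2.46 ± 0.48, adjusted p = 0.0093). Gabra2, Gabra5, Gabrb1 and Gabrg3 fell too. The chloride exporter Slc12a5, which sets the inhibitory action of GABA in mature neurons, had 2.76, 2.38 and 2.54 CPM in ENB, against 20.3, 8.99 and 35.3 CPM in NSC (-3.06 ± 0.54, adjusted p = 0.0060). Of 41 synapse and excitability genes 9 rose (22.0%) and 3 fell (7.32%). Among libraries with second index ACTGCATA the median change of this list was 0.97, and among those with GTAAGGAG it was -0.13. The medians of the GABA list were 0.07 and -0.72. Nrxn3, a presynaptic adhesion molecule, had 1141, 1709 and 1122 CPM in ENB, against 267, 247 and 247 CPM in NSC (2.38 ± 0.24, adjusted p = 0.00061). Grik3, a kainate receptor subunit, had 81.4, 65.1 and 90.2 CPM in ENB, against 12.8, 9.14 and 8.86 CPM in NSC (2.94 ± 0.32, adjusted p = 0.00068). The sodium channel genes Scn3a and Scn3b, typical of immature neurons, rose by 2.54 ± 0.50 and 2.19 ± 0.33. The vesicle genes Syn2 and Syt4 fell, whereas Snap25 and Syp had changes of -0.78 and -0.82 (adjusted p = 0.46 and 0.22). The 3 rises among GABA genes became 1 without any one ENB library, and 2, 1 and 3 without NSC library 1, 2 or 3. The 6 falls became 3, 4 and 3, and 4, 5 and 4. The 9 rises among synapse genes became 6, 8 and 6 without ENB library 1, 2 or 3, and 9, 5 and 8 without NSC library 1, 2 or 3, and the 3 falls became 3, 2 and 3, and 3, 5 and 4.

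RNA-binding proteins of neurons and chromatin factors of the neuronal switch were higher in part. Of 30 neural RNA-binding proteins 10 rose (33.3%, against 4.95% of all genes) and 1 fell (3.33%, against 5.12%). Celf4, a regulator of mRNA stability, had 315, 325 and 305 CPM in ENB, against 88.5, 53.3 and 81.1 CPM in NSC (2.08 ± 0.25, adjusted p = 0.0011). Rbfox2, a splicing factor, had 299, 296 and 276 CPM in ENB, against 75.0, 59.5 and 47.9 CPM in NSC (2.26 ± 0.31, adjusted p = 0.0022). Elavl2, Elavl3 and Elavl4, the neuronal Hu proteins, rose by 1.73, 1.69 and 1.48, and Srrm4, the splicing factor of neural microexons, by 2.13. Msi2, a stem cell RNA-binding protein, fell by 0.90 ± 0.24 (adjusted p = 0.034). Of 35 chromatin genes 6 rose (17.1%) and 1 fell (2.86%). Actl6b, the neuronal subunit of the BAF remodelling complex, had 116, 107 and 97.9 CPM in ENB, against 29.9, 14.0 and 26.7 CPM in NSC (2.18 ± 0.33, adjusted p = 0.0028). Hmga1, a chromatin protein of precursors, had at most 17.0 CPM in any ENB library, against at least 65.7 CPM in any NSC library (-2.33 ± 0.43, adjusted p = 0.0077). Among 16 long noncoding RNA genes 4 rose, which were Dlx6os1, Sox2ot, Kcnq1ot1 and Mir124a-1hg, and Snhg11 fell. Of the 2 gene IDs that carry the symbol Dlx6os1, one rose by 2.52 and the other had a change of 1.90 (adjusted p = 0.11). Mir124a-1hg, a host transcript of the neuronal microRNA miR-124, had 83.2, 112 and 76.2 CPM in ENB, against 24.6, 10.2 and 19.1 CPM in NSC (2.33 ± 0.39, adjusted p = 0.0051). The library kit does not mark strand, so reads of Dlx6os1 and Sox2ot cannot be told apart from those of the coding genes that they overlap. The 10 rises of RNA-binding proteins became 6 or 7 without any one library and the fall of Msi2 was lost without any one of them, and the 6 of chromatin genes became 4, 4 and 5, and 4, 3 and 3.

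Metabolic genes were lower in ENB in several lists. Of 30 genes of redox and amino acid metabolism 17 fell and 0 rose, with a median change of -1.74. Phgdh, the first enzyme of serine synthesis, had 57.4, 57.2 and 67.0 CPM in ENB, against 559, 700 and 675 CPM in NSC (-3.41 ± 0.65, adjusted p = 0.0085), and Psat1 and Psph, which complete that pathway, fell by 2.42 and 3.01. Prdx6, a peroxiredoxin, had 157, 271 and 172 CPM in ENB, against 1607, 1789 and 1851 CPM in NSC (-3.13 ± 0.56, adjusted p = 0.0065). Of 25 genes of fatty acid oxidation and ketone use 13 fell and 1 rose, with a median of -1.33. Cpt1a, which admits fatty acids to mitochondria, fell by 3.21 ± 0.87 (adjusted p = 0.038), and Cpt1c, its neuronal relative, rose by 1.04 ± 0.22 (adjusted p = 0.014). Eci1, an enzyme of the oxidation of unsaturated fatty acids, had 22.7, 22.4 and 20.6 CPM in ENB, against 116, 111 and 119 CPM in NSC. Of 24 genes of glycolysis and lactate 11 fell and 1 rose, with a median of -1.24. Aldoa had 91.9, 134 and 110 CPM in ENB, against 734, 583 and 805 CPM in NSC (-2.66 ± 0.31, adjusted p = 0.00096), and Aldoc, the astrocyte form of the same enzyme, fell by 3.55 ± 0.92 (adjusted p = 0.032). Pfkp, a phosphofructokinase, was the one that rose, by 1.58 ± 0.38. Of 30 subunits of the respiratory chain 2 fell and 0 rose, with a median of -0.31, and of 30 genes of lipid and cholesterol synthesis 3 fell and 0 rose, with a median of -0.50. These are 6.67 and 10.0% of the lists, against 5.12% of all genes. The respiratory falls became 0 without any one library. The lipid falls became 0 without any one ENB library, and 1, 2 and 0 without NSC library 1, 2 or 3. In the fit to the 6 libraries alone, 8 respiratory and 13 lipid genes were called lower, where 2255 were called lower over all genes. Falls of the redox list became 4, 7 and 5 without ENB library 1, 2 or 3, and 11, 9 and 9 without NSC library 1, 2 or 3. Those of fatty acid oxidation became 3, 4 and 3, and 9, 8 and 6, and those of glycolysis 3, 5 and 3, and 6, 6 and 3, and glycolysis had 0 rises without ENB 2, ENB 3, NSC 1 or NSC 2.

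**Figure D4:**
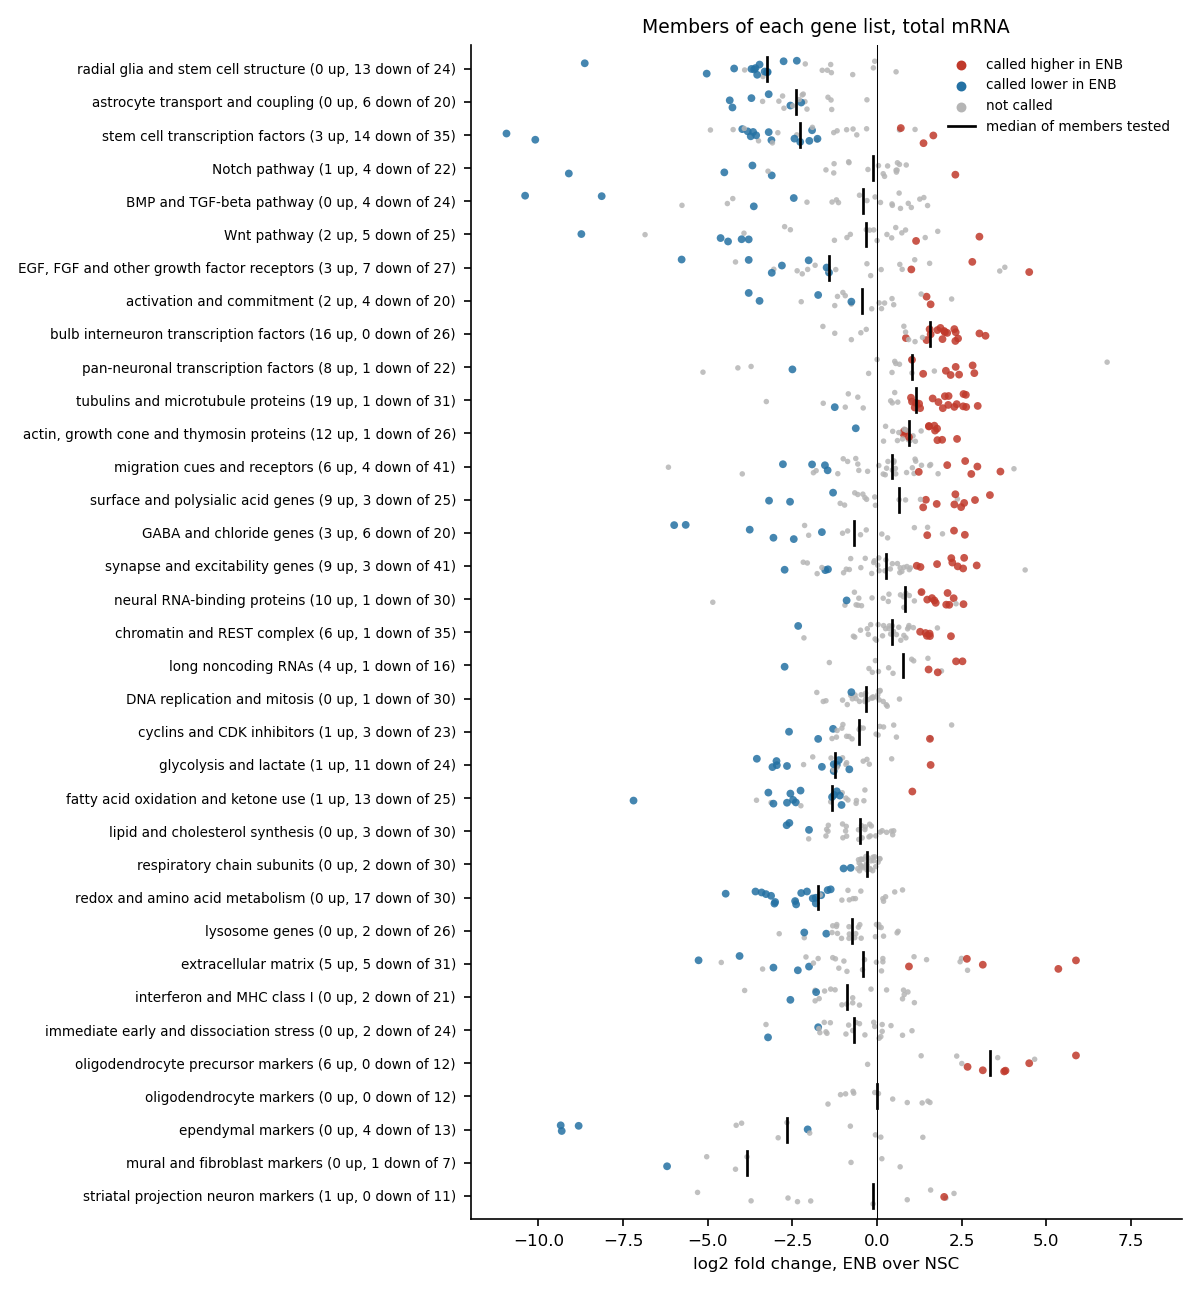
Log2 fold changes of ENB over NSC for every tested member of 35 gene lists. Each point is a gene, red where it was called higher in ENB, blue where it was called lower and grey where it was not called, and the black line is the median of the list's tested members. The interneuron and microtubule lists lie right of 0, at medians of 1.57 and 1.15, and the radial glia list left of it, at -3.24.

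Matrix genes moved both ways, with 5 rises and 5 falls of 31 (16.1% each, against 4.95 and 5.12% of all genes). The rises include Matn4 and Cspg4, which are also markers of oligodendrocyte precursors, a list whose summed level was 563 to 922 CPM in ENB and 77.7 to 232 CPM in NSC. The 5 falls became 0, 3 and 1 without ENB library 1, 2 or 3, and 4 without any one NSC library, and the 5 rises became 2 to 4. Vcan, the proteoglycan versican, had 310, 457 and 391 CPM in ENB, against 47.4, 69.2 and 67.4 CPM in NSC (2.65 ± 0.42, adjusted p = 0.0040), and Sparc, a matrix protein of astrocytes and vessels, had 10.4, 26.5 and 15.5 CPM in ENB, against 252, 333 and 286 CPM in NSC. Of 24 immediate early and stress genes, which respond to dissociation, 2 fell and 0 rose. Fos had 432, 403 and 516 CPM in ENB, against 1114, 1775 and 882 CPM in NSC, a change of -1.48 that was not called (adjusted p = 0.054). The lysosome list had 2 falls of 26 and the interferon and MHC class I list 2 of 21. The shares of these last 3 lists called lower, 8.33, 7.69 and 9.52%, stand against 5.12% of all genes.

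Markers of other cell types were called in 4 of 8 lists, where 4.95% of all genes were called higher and 5.12% lower. Where a list had only 1 call, its share was 9.09% (striatal projection neurons, higher) or 14.3% (mural and fibroblast, lower). Of 12 markers of oligodendrocyte precursors 6 rose (50.0%) and 0 fell. Their summed level was 922, 563 and 905 CPM in ENB, against 77.7, 112 and 232 CPM in NSC. Pdgfra, Cspg4, Lhfpl3, Matn4, C1ql1 and Cacng4 were the 6, so that 3 of the 12 largest rises belong to this list. The defining factors of that lineage were not called: Sox10 had 68.3, 21.4 and 30.3 CPM in ENB, against 0, 0.686 and 21.1 CPM in NSC (adjusted p = 0.25), and Olig2 had 56.5, 17.5 and 81.7 CPM in ENB, against 8.23, 23.5 and 31.7 CPM in NSC (adjusted p = 0.34). NSC library 3 was the highest NSC library for this list. The 6 rises became 4 without any one ENB library, and 3, 3 and 6 without NSC library 1, 2 or 3. The part of these cells in the rises was not tested. Myelin genes varied within both stages, and the 12 oligodendrocyte markers summed to 1187, 3095 and 2707 CPM in ENB and to 299, 1134 and 3159 CPM in NSC, with 0 called. Of 13 tested ependymal markers 4 fell (30.8%). Rsph1, Cfap126 and Dynlrb2, genes of motile cilia, were at 0 in every ENB library and at 2.24 to 9.45 CPM in NSC. The 4 falls became 0, 3 and 0 without ENB library 1, 2 or 3, and 3, 1 and 1 without NSC library 1, 2 or 3. The 15 ependymal markers summed to 136, 213 and 137 CPM in ENB, against 241, 254 and 266 CPM in NSC, most of it from Rfx3, and 5 of them were at 0 in all ENB libraries against 0 in all NSC libraries. Foxj1, the defining factor of ciliated cells, had 0.518, 3.38 and 0.457 CPM in ENB, against 7.93, 17.1 and 7.51 CPM in NSC (adjusted p = 0.080). Mural and fibroblast markers summed to 4.31, 12.4 and 2.48 CPM in ENB, against 74.7, 102 and 97.0 CPM in NSC, with Pdgfrb, Myl9 and Col1a2 the highest in NSC, while the defining genes Kcnj8, Dcn and Lum were at 0 in all 6 libraries. Microglia markers summed to 26.3 to 56.6 CPM in ENB and 53.3 to 69.9 CPM in NSC, and Ptprc was at 0 throughout. Endothelial markers summed to 0.125 to 4.96 CPM in ENB and 7.54 to 29.9 CPM in NSC, and Itm2a was the highest of them in every NSC library, with Cdh5, Tie1 and Tek at 0. Of 11 tested markers of striatal projection neurons 1 rose, Bcl11b, which bulb interneurons also use. Blood cell markers summed to at most 7.30 CPM in any of the 6 libraries, and 0 were called.

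Ribosome-bound mRNA offers the same step in libraries that share none with the comparison above. There, HA-tagged ribosomes were precipitated from homogenates of the whole zone, without sorting, in 2 libraries of ENB and 2 of NSC, and 3 libraries of precipitates from tissue without the tag give the background. In that fit 1579 of 19066 genes were called, 655 higher in ENB (3.44%) and 924 lower (4.85%). All 871 genes that rose in total mRNA were tested there. Of these, 683 (78.4%) had a positive change, against 49.6% of all genes tested in both, and their median was 0.50 against 0.02 for all genes. Called higher were 108, which is 12.4% of the total mRNA rises and 16.5% of the ribosome-bound rises, and 7 were called lower. Of the 901 genes that fell in total mRNA 897 were tested there, and 693 (77.3%) had a negative change, with a median of -0.74. Called lower were 212, which is 23.6% of those tested and 22.9% of the ribosome-bound falls, and 14 were called higher. By list, the ribosome-bound falls included 16 of 24 genes of radial glia, 13 of 25 of fatty acid oxidation and 16 of 30 of redox and amino acid metabolism. Glycolysis had 2 of 24 called lower there, with a median of -0.18, where total mRNA had 11. In contrast, 3 of 31 microtubule genes and 3 of 26 interneuron factors were called higher there, and 3 and 2 of them lower. Genes of replication and mitosis were lower in ribosome-bound mRNA, with 12 of 30 called and a median of -1.86, where total mRNA had 1. The number of ribosome-bound calls was 354 and 522 without ENB library 1 or 2, and 962 and 639 without NSC library 1 or 2.

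Single genes show how far the readouts part. Prokr2 had 45.6 and 145 CPM in ENB precipitates and 0 and 4.24 CPM in NSC precipitates, with 2.13, 8.26 and 4.16 CPM in the untagged background (5.43 ± 0.81, adjusted p = 0.0023). Prokr2 has the same direction as in total mRNA. Tuba1a had 2119 and 3777 CPM in ENB precipitates and 2344 and 3728 CPM in NSC precipitates, with 1015, 889 and 681 CPM in the background (-0.04, adjusted p = 0.98). Its ribosome-bound groups overlap, although its total mRNA rose. Top2a had 75.4 and 52.2 CPM in ENB precipitates and 173 and 299 CPM in NSC precipitates, with 18.0, 24.6 and 19.1 CPM in the background (-1.89 ± 0.45, adjusted p = 0.020). The difference between the readouts was not tested, and sorted cells are set here against unsorted tissue.

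**Figure D5:**
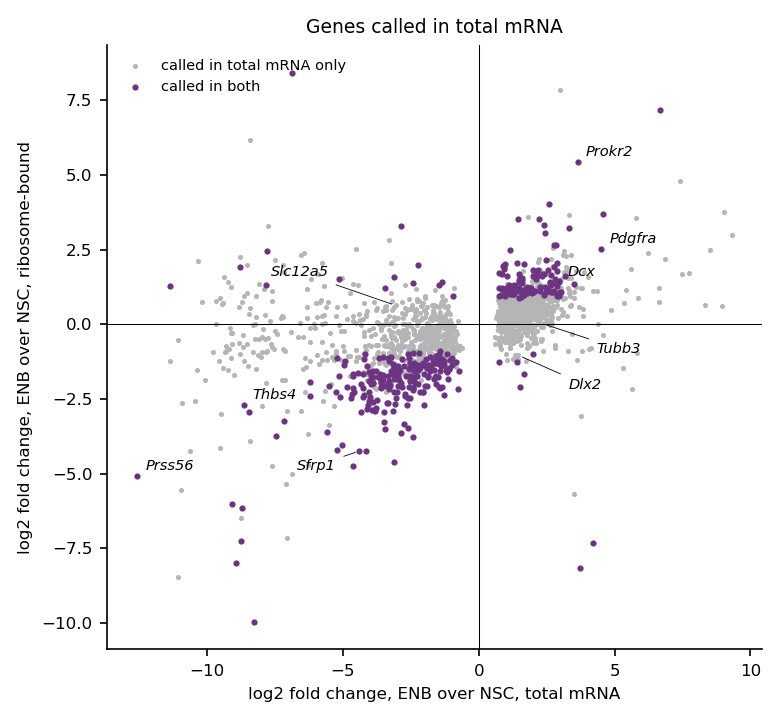
Genes called between ENB and NSC in total mRNA that were also tested in ribosome-bound mRNA. The x axis is the log2 fold change of ENB over NSC in total mRNA, the y axis the same in ribosome-bound mRNA, and purple points were called in both. Of the risen genes 683 lie above the horizontal line, and of the fallen genes 693 lie below it.

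The stages that follow put the step in place. Dcx averaged 161 ± 28.6 CPM in NSC, 1255 ± 279 CPM in ENB, 1230 ± 334 CPM in LNB and 184 ± 37.6 CPM in neurons (SD, n = 3 each). The ENB and LNB values of Dcx differ by less than their spread, and so do the NSC and neuron values. Nr2e1 averaged 277 ± 56.3 CPM in NSC, 19.6 ± 9.14 CPM in ENB, 27.7 ± 21.9 CPM in LNB and 4.40 ± 2.08 CPM in neurons. Slc1a3 averaged 2141 ± 291 CPM in NSC, 164 ± 67.2 CPM in ENB, 2788 ± 2045 CPM in LNB and 1203 ± 845 CPM in neurons. Its libraries of both bulb stages vary widely, and ENB is the stage with the lowest mean. Sp8 averaged 243 ± 21.4 CPM in ENB and 442 ± 232 CPM in LNB, and the difference is within the spread of LNB. Cdk6 averaged 52.9 ± 8.53 CPM in ENB and 6.27 ± 4.17 CPM in LNB.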

How the data were processed

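Total mRNA was made into Smart-seq2 libraries with oligo(dT) priming and Nextera XT, a kit that does not mark strand, per the labels' protocols. The authors deposited raw counts per gene with no normalization, and the tool that made them is not given in the sources used here. The deposited expected counts and the deposited TPM values, which are scaled per transcript length and library, are those of an RSEM table, and RSEM 1.2.21, Bowtie2 2.2.6 and GRCm38 are named in the submitters' processing notes. Of the TPM rows, 92 carry no gene ID and were left out. All columns used could be tied to a sample by name.

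Raw counts of the 12 total mRNA libraries were filtered with filterByExpr, scaled with TMM and fitted with edgeR 4.0.16 (R 4.3.3, glmQLFit and glmQLFTest, group only, contrast ENB minus NSC), with Benjamini-Hochberg adjustment over all genes tested and a threshold of 0.05. The 15 immunoprecipitated libraries were fitted the same way. Adjusted p-values come from these fits, except those given for a call lost without a library, which come from the fit without it. They weigh a change against the spread between libraries, estimated over all stages in the fit. The procedure was also run on simulated counts. These were drawn from the kind of model that the fit assumes, with no effect of the second index, so the run does not measure errors in the real data. The 6 libraries compared hold 7924825 to 15994635 counts, and intervals and floors (3 counts over a group, 95% exact) cover counting error only. The text names the stage markers, the 12 largest rises and 12 largest falls (called, no overlap, at least 20 CPM in the higher stage), and in each of 40 gene lists the 3 called genes with the lowest adjusted p; other list members are given as values of their list. Some genes that the rule names are not reported here. The members and lists were chosen with earlier results of these data known. Alternatives were DESeq2 1.42.0, TPM with limma 3.58.1 (pseudocount 1), other filters and scaling, expected counts rounded to whole numbers, the 6 libraries alone, terms for the second index or the replicate number, and leaving out each library. Promoters and gene positions come from RefSeq, GRCm38.p6, matched by symbol or gene ID.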

Additional observations from a re-analysis of the deposited data

Results flagged for a closer look

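Of the 111 genes named by the rule, 6 lay on opposite sides in the 2 readouts. For these, every ENB library was on one side of every NSC library in total mRNA and on the other in ribosome-bound mRNA. With 2 ribosome-bound libraries per stage, such a separation can occur without a difference. In total mRNA the stages did not overlap in 43.3% of all genes tested, and the share on opposite sides over all genes was not counted. These 6 genes are therefore given by value only. For each of them the difference between the readouts was not tested, and neither was any reason for it. Eno2, the neuronal enolase, fell by 2.96 in total mRNA and had a ribosome-bound change of 0.21 ± 0.28, with 526 and 508 CPM in ENB precipitates, 467 and 427 CPM in NSC precipitates and 630, 560 and 480 CPM in the untagged background. Gabra4 fell by 2.46 in total mRNA and had a ribosome-bound change of 0.56 ± 0.27, with 215 and 238 CPM in ENB, 197 and 109 CPM in NSC and 190, 207 and 189 CPM in the background. Slc12a5 fell by 3.06 in total mRNA and had a ribosome-bound change of 0.63 ± 0.23, with 230 and 181 CPM in ENB, 143 and 123 CPM in NSC and 186, 147 and 161 CPM in the background. Spock1, a matrix proteoglycan, fell by 5.27 in total mRNA and had a ribosome-bound change of 0.27 ± 0.23, with 97.4 and 85.6 CPM in ENB, 77.9 and 73.4 CPM in NSC and 86.5, 73.1 and 65.2 CPM in the background. Mir124a-1hg rose by 2.33 in total mRNA and had a ribosome-bound change of -0.50 ± 0.40, with 39.8 and 36.8 CPM in ENB, 52.9 and 55.4 CPM in NSC and 111, 109 and 118 CPM in the background. Sema7a rose by 3.78 in total mRNA and had a ribosome-bound change of -0.90 ± 0.85, with 7.11 and 5.04 CPM in ENB, 13.6 and 9.16 CPM in NSC and 8.85, 5.35 and 8.04 CPM in the background. Over all called genes, 7 that rose in total mRNA were called lower and 14 that fell were called higher in ribosome-bound mRNA, and these are not described here. None of the 6 ribosome-bound changes was called by edgeR, with adjusted p from 0.10 to 0.67. For these genes the ribosome-bound levels lie close to those of the untagged background or below them.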

How the results depend on the processing

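The number of genes called between ENB and NSC in total mRNA moved with the libraries that share the estimate of spread and with the tool. Fitting the 6 libraries alone called 4110 genes, 1855 higher and 2255 lower in ENB, and DESeq2 called 3522, 1467 higher and 2055 lower. Leaving out each library in turn gave 721 to 892 calls, 338 to 482 higher and 284 to 518 lower. In ribosome-bound mRNA DESeq2 called 2913 genes, 1573 of them higher, and leaving out each library gave 354 to 962 calls, 151 to 370 higher and 203 to 636 lower. The leave-out fits hold fewer libraries, and where 1 library of a stage remained it was assumed to vary like the other groups; otherwise the cause was not tested. The replicate block gave 1279 calls in total mRNA and 1381 in ribosome-bound mRNA, but the numbers do not pair the libraries: same-numbered libraries had deviation correlations of -0.05 to 0.01, and 0 of 6 libraries correlated best with their own number. A term for the second index gave 1271 calls, expected counts 1412, no filter 1653, the strict filter 2035, DESeq2 size factors 1787 and TPM with limma 1928, of which 597 were higher and 1331 lower. Leaving out genes that overlap ribosomal RNA gave 1756 calls, and leaving out CT010467.1 as well, chosen after seeing the data, gave 1752. Of the 111 genes named by the rule, which were chosen as called, 16 to 30 lost their call when 1 library was left out, 12 with the term for the second index, 9 with the replicate block, 7 with expected counts and at most 4 under any other setting.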
